A study of Mus musculus with 178 samples.

Results

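Endothelial cells (EC) sorted from mouse tibialis anterior muscle 1 day after injury were compared with EC from undamaged muscle. The libraries of each group were taken by their sample labels, and the comparison holds 7 of the 178 RNA libraries of the series, namely 3 wild-type libraries of day 1 and 4 of undamaged muscle. The damage was done with notexin, a phospholipase from snake venom that kills the fibres, and undamaged muscle is counted as day 0. After digestion, EC were taken as cells positive for CD31 and negative for the leukocyte antigen CD45. Per the labels, the animals were PDGFRa EGFP mice of wild-type B6 background. Further libraries serve for comparison, namely CCR2KO EC (2 undamaged, 3 of day 1), which come from mice lacking the chemokine receptor CCR2, and wild-type fibro-adipogenic progenitors (FAP; 3 undamaged, 4 of day 1), the stromal cells of the same muscle, sorted by EGFP without CD45 or CD31. The labels give no age and do not tie libraries to animals. The p-values therefore rest on the spread between libraries, which may be technical. In such bulk samples a change in the share of a cell type and a change in RNA per cell cannot be told apart.

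Endothelial cells line the capillaries that run along each muscle fibre. In resting muscle they are mostly quiescent, take up fatty acids for the fibres and form a barrier to blood cells. After damage they can be activated by cytokines to capture leukocytes, and by growth factors of the VEGF family to sprout, which involves a leading tip cell, remodelling of the cytoskeleton and later division.

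Gene counts summed to between 1781338 and 19041495 per wild-type EC library, and the lowest total was that of undamaged library 2. All 13 endothelial markers were detected in all 7 libraries, and their summed level was 13393 to 17871 CPM (read counts scaled to library size) in undamaged EC. It was 16198 and 14581 CPM in day 1 libraries 1 and 2, and 7607 CPM in day 1 library 3. Thus each library held the markers of its label, at the lowest level in day 1 library 3. Pecam1, which encodes the sorted antigen CD31, was at 1787 to 3271 CPM and 1534 to 3519 CPM, and since it set the gate its level is no result.

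Libraries of both groups stood apart from their group mates. The summed level of 11 stromal progenitor markers, which include the collagen genes Col1a1 and Col3a1, was 19590 CPM in day 1 library 3, against 768 and 196 CPM in day 1 libraries 1 and 2. Undamaged library 2 had 13628 CPM of the same markers, against 3495, 834 and 509 CPM in undamaged libraries 1, 3 and 4. For scale, FAP held 74151 to 90561 CPM in undamaged muscle and 32663 to 42054 CPM at day 1. Undamaged library 2 also carried 594 CPM of 7 leukocyte markers, against 30 to 39 CPM in the other undamaged libraries and 88 to 161 CPM at day 1, and 151 CPM of Xist, the transcript of the inactive X chromosome, which was at 2.29 CPM or less in the other 6. Counts of called genes, and the calls themselves, are therefore also given without day 1 library 3. That setting keeps undamaged library 2, so stromal RNA then weighs on the undamaged side. The median log2 fold change of the 11 stromal markers was 0.476 with all libraries and -3.345 without day 1 library 3. Without undamaged library 2 as well it was -1.13. A fall that holds without day 1 library 3 is therefore not freed of RNA from other cells. Tenocyte markers summed to 2876 CPM in day 1 library 3 and 1259 CPM in undamaged library 1, against 43.9 to 124 CPM in the other 5 libraries. Pericyte and smooth muscle markers summed to 1556 to 2579 CPM over all 7 libraries. The sum of 11 myofibre genes was 94.3 to 249 CPM in undamaged EC and 20.3 to 30.1 CPM at day 1, and that of 5 Schwann cell markers was 111 to 265 CPM and 19.95 to 26.9 CPM. Of 6 satellite cell markers 2 fell with all libraries and none was called without day 1 library 3, with sums of 29.9 to 125 CPM and 40.2 to 56.2 CPM. Of all genes tested, 2.19% fell with all libraries and 0.475% without day 1 library 3. The part of RNA from other cells in the results was not tested beyond leaving out libraries and a fit with stromal markers as a covariate.

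**Figure D1:**
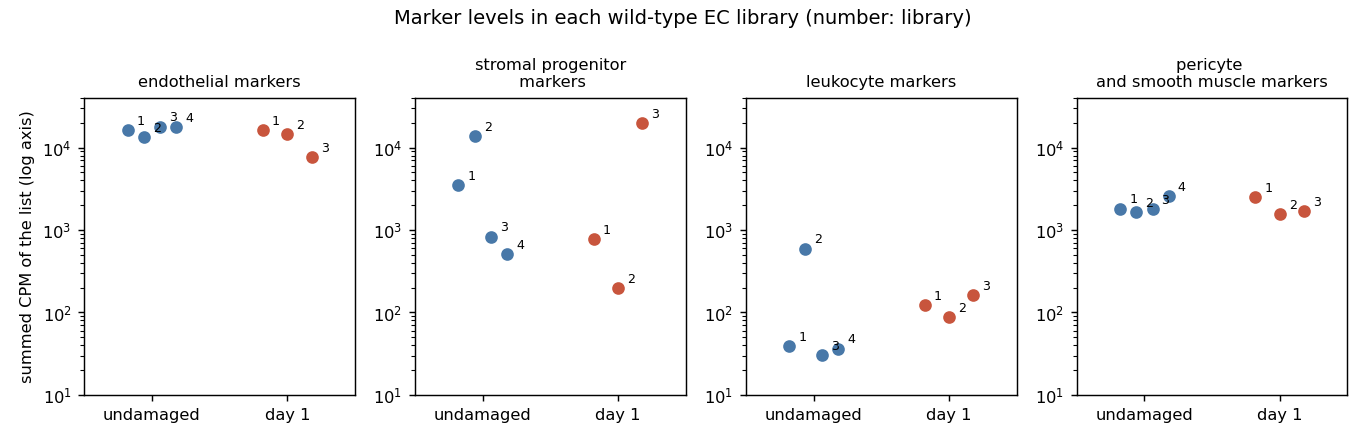
Summed CPM of 4 marker lists in each wild-type EC library on a log axis that is the same in all panels, with points numbered by library. Stromal progenitor markers reach 19590 CPM in day 1 library 3 and 13628 CPM in undamaged library 2, and leukocyte markers reach 594 CPM in undamaged library 2.

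At day 1, 848 of 15603 genes tested differed from undamaged EC (5.43%), with 506 higher (3.24%) and 342 lower (2.19%) by edgeR's quasi-likelihood test at an adjusted p under 0.05. Without day 1 library 3 the count was 202 of 15578 genes (1.3%), with 128 higher (0.822%) and 74 lower (0.475%), and 188 of these were also called with it. Leaving out undamaged library 2 as well left 121 genes (0.783%), with 58 higher (0.375%) and 63 lower (0.408%). The split also turned with the compared groups alone (71 higher, 129 lower), with the R52 libraries among them (102 and 139) and with stromal markers as a covariate (522 and 610). R52 is a code in the labels that all day 1 and 2 undamaged libraries carry, which nothing in the labels explains. With all libraries, 2882 of the 15603 genes tested had groups that did not overlap (18.5%). Of these, 778 were called (4.99% of genes tested). The 12 highest and 12 lowest called genes were picked among those with such groups that held without day 1 library 3. For these genes, which include Apln, Pgf, Sqle, Sh2d5, Cytl1 and Timp4, neither trait is a further result. The median log2 fold change over all genes tested was -0.0060 with all libraries and -0.066 without day 1 library 3.

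Apln and Pgf, which encode secreted angiogenic factors, were among the genes that rose under every alternative tried. Apln encodes apelin, a peptide of sprouting endothelial tip cells, and lies on chromosome X at 48025146 to 48034853 of GRCm38 on the minus strand. Its level was 36.3, 14.7, 18.8 and 28.3 CPM in the 4 undamaged libraries and 381, 887 and 330 CPM in the 3 day 1 libraries. The groups did not overlap, and every day 1 library lay far above the highest undamaged one. It rose by 4.43 on the log2 scale (SE 0.40, adjusted p = 2.896e-07), and by 4.73 without day 1 library 3 (adjusted p = 7.838e-08).

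Pgf encodes placental growth factor, a VEGF family ligand of the receptor FLT1, and lies on chromosome 12 at 85166635 to 85177790 on the minus strand. It stood at 7.80, 6.25, 7.07 and 11.4 CPM in undamaged EC and at 188, 462 and 127 CPM at day 1. Day 1 library 2 was the highest for both Apln and Pgf, and the library with stromal RNA was the lowest for both. Pgf rose by 4.98 on the log2 scale (SE 0.62, adjusted p = 4.977e-05), and by 5.35 without day 1 library 3 (adjusted p = 2.865e-05).

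Another ligand of the family went down. Vegfc encodes a ligand of FLT4 best known for lymphatic growth, and it fell from 49.1, 47.8, 49.3 and 109 CPM to 19.6, 12.3 and 7.83 CPM. Its groups did not overlap. The change was -2.27 on the log2 scale (SE 0.42, adjusted p = 0.00261), and -1.97 without day 1 library 3 (adjusted p = 0.036). Of the 10 VEGF family genes and receptors tested, these were the 2 called, 1 in each direction, against 5.43% of all genes tested. The receptors did not pass: Kdr, the main receptor for VEGFA, had a log2 fold change of -0.76 (adjusted p = 0.307, and 0.745 without library 3) and Flt1 one of -0.55 (adjusted p = 0.452, and 0.866).

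Of all genes tested, 3.24% rose with day 1 library 3 and 0.822% without it. Among 16 tip cell and sprouting genes, 2 rose and none fell, with and without day 1 library 3, and the list's median log2 fold change was 0.042 with it and -0.20 without it. Beside Apln, the second was Mcam, an adhesion molecule of endothelial and mural cells, at 281, 196, 265 and 352 CPM in undamaged EC and 837, 946 and 344 CPM at day 1. Day 1 library 3 lay inside the undamaged range for Mcam, and the other day 1 libraries lay above it. The log2 fold change was 1.37 (adjusted p = 0.0268), and 1.74 without that library (adjusted p = 0.017). Without undamaged library 2 as well it was not called (adjusted p = 0.0565), nor when undamaged library 1 or 2 or day 1 library 1 or 2 was left out singly. Angpt2, a destabilising ligand of the receptor TEK, was at 129, 359 and 53.2 CPM at day 1 against 56.6 to 88.3 CPM and did not pass (log2 fold change 1.40, adjusted p = 0.106, and 0.0685 without library 3). Esm1, another tip cell gene, did not pass either (log2 fold change -0.76, adjusted p = 0.551, and 0.89 without library 3).

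The windows of 250 bases before the annotated start are shown for Apln and Pgf, the leading secreted factors, and for Nop2 and Hmgcs1, which belong to groups described below and hold a motif searched for. They come from RefSeq on GRCm38.p6 and are written on the strand of the gene, and capitals mark a motif. Pgf has 2 starts in RefSeq, of which the outer is shown. The GENCODE span of Pgf given above begins farther out than either, so this window lies inside it. The windows lie at chrX:48034854-48035103 (minus strand) for Apln, chr12:85177314-85177563 (minus) for Pgf, chr6:125131633-125131882 (plus) for Nop2 and chr13:119690101-119690350 (plus) for Hmgcs1.
Apln: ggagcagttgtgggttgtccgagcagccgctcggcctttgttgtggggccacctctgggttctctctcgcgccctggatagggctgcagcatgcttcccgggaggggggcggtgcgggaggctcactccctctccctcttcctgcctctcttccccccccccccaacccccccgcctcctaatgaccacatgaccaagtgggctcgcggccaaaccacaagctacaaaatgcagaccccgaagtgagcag
Pgf: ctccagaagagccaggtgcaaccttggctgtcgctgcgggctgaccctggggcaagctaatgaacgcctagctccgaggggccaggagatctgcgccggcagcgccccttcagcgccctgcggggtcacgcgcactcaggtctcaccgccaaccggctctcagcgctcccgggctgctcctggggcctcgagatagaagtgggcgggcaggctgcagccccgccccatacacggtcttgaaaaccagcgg
Nop2: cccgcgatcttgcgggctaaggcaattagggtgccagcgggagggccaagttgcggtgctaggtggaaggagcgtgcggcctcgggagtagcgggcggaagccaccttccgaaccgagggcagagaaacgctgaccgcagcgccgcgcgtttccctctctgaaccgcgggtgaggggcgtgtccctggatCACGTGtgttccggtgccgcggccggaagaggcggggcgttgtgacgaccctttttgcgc
Hmgcs1: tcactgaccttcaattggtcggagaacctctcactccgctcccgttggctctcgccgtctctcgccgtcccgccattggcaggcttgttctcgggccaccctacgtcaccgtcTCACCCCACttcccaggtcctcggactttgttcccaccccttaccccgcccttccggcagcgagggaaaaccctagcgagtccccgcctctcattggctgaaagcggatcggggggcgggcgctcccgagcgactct

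There were 4 motifs searched on both strands, and most windows held none. They were an E-box (CACGTG), an amino acid response element (TGATGNAAT), a sterol element (TCACNCCAC) and an AP-1 site (TGANTCA). The E-box stood in 1 of 12 ribosome biogenesis genes with a window, Nop2, against 6.02% of all 32851 windows, and in none of 11 amino acid response or 10 tip cell genes. The sterol element stood in 1 of 7 cholesterol synthesis genes, Hmgcs1, against 1.05% of all windows, and in none of the 12 ribosome biogenesis genes. The amino acid response element was in none of the 11 amino acid response genes (0.816% of all windows) nor of the 12 ribosome biogenesis genes, and the AP-1 site was in none of the 10 tip cell or 7 cholesterol synthesis genes (6.75% of all windows). These matches describe the letters of the windows only.

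Genes of ribosome biogenesis formed the group with the most members called. Of 16 tested, 13 rose and none fell (median log2 fold change 1.45), against 3.24% of all genes tested that rose. Without day 1 library 3, 7 rose (median 1.54), against 0.822% of all genes. For other settings, the genes that rose over all tested are given in brackets. The count was 6 without day 1 library 2 (369 of 15579), 7 without undamaged library 2 (405 of 15496) and 8 without undamaged library 1 (330 of 15609). It was 3 without undamaged library 2 and day 1 library 3 together (58 of 15454). It was 3 among R52 libraries (102 of 15494) and 2 with the compared groups alone (71 of 13152). No member of the list fell in any of these settings. Heatr1, needed for transcription and processing of ribosomal RNA, was at 22.9, 33.0, 27.1 and 21.3 CPM in undamaged EC and at 69.2, 101 and 110 CPM at day 1. All day 1 values lay above all undamaged ones, and the change was 1.84 on the log2 scale (SE 0.27, adjusted p = 0.000403; 1.73 and adjusted p = 0.00479 without day 1 library 3). Nop2, a ribosomal RNA methyltransferase, went from 26.7, 21.0, 26.6 and 27.3 CPM to 55.4, 91.7 and 119 CPM (log2 fold change 1.80, adjusted p = 0.0009706; 1.56 and adjusted p = 0.0157 without day 1 library 3). Ddx21, a nucleolar RNA helicase, rose by a log2 fold change of 1.67 (adjusted p = 0.00344) and kept its call without that library (adjusted p = 0.012). Fbl, the methyltransferase fibrillarin, rose as well (log2 fold change 1.73, adjusted p = 0.00638, 0.0418 without that library and 0.107 without undamaged library 2 as well), while Bop1 lost its call (log2 fold change 1.76, adjusted p = 0.0207, and 0.23 without it).

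Genes of the cytoskeleton and of amino acid, folate and cholesterol metabolism rose in part. Tubb6, a beta-tubulin, was at 57.5, 46.0, 45.6 and 87.0 CPM in undamaged EC and at 314, 681 and 806 CPM at day 1. Its groups were far apart. The change was 3.34 on the log2 scale (SE 0.40, adjusted p = 3.033e-05), and 3.12 without day 1 library 3 (adjusted p = 0.000173). Of 18 cytoskeleton and migration genes 6 rose (median log2 fold change 1.04), against 3.24% of all genes tested. Without that library Tubb6 alone did, against 0.822% of all genes. Of the other 5, Tuba1c, Tubb5 and the lectin gene Lgals1 had adjusted p-values of 0.0792, 0.243 and 0.851 without it.

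Mthfd2, a mitochondrial enzyme of the folate cycle, was at 4.73, 11.2, 3.43 and 5.75 CPM in undamaged EC and at 26.9, 47.2 and 75.7 CPM at day 1. Day 1 library 3 was the highest and the groups did not overlap. The gene rose by 3.05 on the log2 scale (SE 0.44, adjusted p = 0.000367), or by 2.65 without it (adjusted p = 0.00479). Psat1, an enzyme of serine synthesis, was at 2.55 to 5.6 CPM in undamaged EC and at 23.2, 32.3 and 202 CPM at day 1 (log2 fold change 4.26, adjusted p = 0.0009706). Most of its day 1 mean came from library 3, and without it the log2 fold change was 2.67 (adjusted p = 0.027), a call lost without undamaged library 2 as well (adjusted p = 0.0516). Shmt2 and Slc7a5, a serine hydroxymethyltransferase and an amino acid transporter, rose with library 3 (log2 fold change 2.39 and 2.52) and were not called without it (adjusted p = 0.131 and 0.345). Among 12 amino acid response genes, 5 rose with all libraries (median log2 fold change 2.19) and 2, Mthfd2 and Psat1, without library 3. The shares of all genes tested were 3.24% and 0.822%. Atf4, the transcription factor after which the response is known, had a log2 fold change of 0.13 (adjusted p = 0.917).

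In cholesterol metabolism, 7 of 13 genes rose and none fell (median log2 fold change 2.04), and 3 rose without day 1 library 3. The shares of all genes tested that rose were 3.24% and 0.822%. Sqle, squalene epoxidase, was at 4.51, 4.91, 4.16 and 5.45 CPM in undamaged EC and at 45, 47.9 and 110 CPM at day 1. The undamaged libraries lay close together and the day 1 libraries well above them, and the change was 3.83 on the log2 scale (SE 0.66, adjusted p = 0.00153; 3.32 and adjusted p = 0.017 without day 1 library 3). Cyp51, a lanosterol demethylase, rose as well (log2 fold change 2.95, adjusted p = 0.00344, 0.0423 without library 3 and 0.0686 without both libraries). The gene whose window holds the sterol element, Hmgcs1, did not pass (log2 fold change 1.28, adjusted p = 0.0851).

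**Figure D2:**
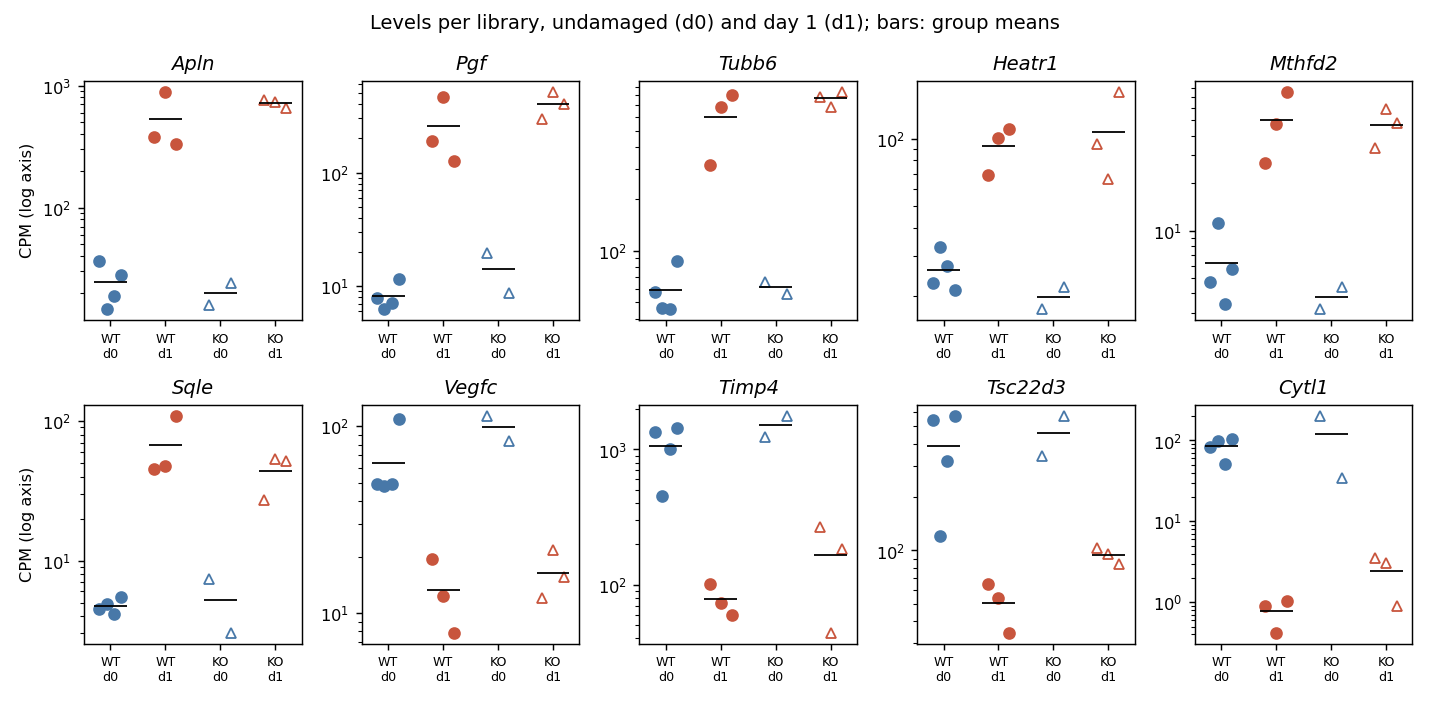
CPM per library on log axes for 10 genes in wild-type (WT, filled circles) and CCR2KO (KO, open triangles) EC, undamaged (d0, blue) and day 1 (d1, red), with bars at group means. In each panel the day 1 libraries of a genotype lie on 1 side of its undamaged libraries, above for Apln to Sqle and below for Vegfc to Cytl1. The genes are a part of those named by their wild-type change. Of all genes tested, 18.5% had wild-type groups that did not overlap, a share not counted in CCR2KO.

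Genes of DNA replication rose with all libraries, and nearly all of these calls went with day 1 library 3. The share of all genes tested that rose was 3.24% with that library and 0.822% without it. Without undamaged library 1, 330 of 15609 genes rose, and without undamaged library 2, 405 of 15496. Without undamaged library 2 and day 1 library 3 together, 58 of 15454 genes rose. Of 14 S phase genes 11 rose (median log2 fold change 2.04), against 1 without that library (median 0.66), 7 without undamaged library 1 or 2, and none without undamaged library 2 and day 1 library 3 together. That 1 was Mcm2, a subunit of the replicative helicase, at 13.6, 14.7, 13.3 and 17.0 CPM in undamaged EC and 37.8, 52.1 and 202 CPM at day 1 (log2 fold change 2.73, adjusted p = 0.0009706, and 1.65, adjusted p = 0.027 without library 3). Without undamaged library 2 as well it missed the threshold (adjusted p = 0.0639). Rrm2, a subunit of ribonucleotide reductase, was at 4.84 to 6.59 CPM in undamaged EC and at 5.04, 3.76 and 90.3 CPM at day 1. Its log2 fold change of 2.61 (adjusted p = 0.0314) became -0.28 without library 3. Of 13 mitosis genes 3 rose and 1 fell, and none was called without library 3, where the list's median log2 fold change was -0.29. Top2a, the topoisomerase of dividing cells, showed the pattern, at 9.39 and 8.41 CPM in day 1 libraries 1 and 2 and 108 CPM in library 3, against 2.80 to 10.7 CPM in undamaged EC.

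Of the inflammatory lists, adhesion genes had 1 of 15 called, chemokines 4 of 18 and interferon response genes none of 20, against 5.43% of all genes tested. Of the 15 adhesion and capture genes none rose and 1 fell, Jam2, a junctional adhesion molecule, at 1593, 790, 1535 and 1083 CPM in undamaged EC and at 575, 443 and 154 CPM at day 1. Its groups did not overlap (log2 fold change -1.68, adjusted p = 0.0169), but it was not called without day 1 library 3 (log2 fold change -1.28, adjusted p = 0.135). The selectins and their partners were not called: Sele had a log2 fold change of -2.04 (adjusted p = 0.251), Selp one of -1.32 (adjusted p = 0.411), Icam1 one of -0.97 (adjusted p = 0.413) and Vcam1 one of -1.65 (adjusted p = 0.0729). Vcam1, which binds integrins of leukocytes, was at 62.5 to 271 CPM in undamaged EC and 35.1, 26.7 and 94.6 CPM at day 1, and it passed without undamaged library 2 and day 1 library 3 (adjusted p = 0.0313).

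Among 18 chemokines 3 rose and 1 fell, and none was called without day 1 library 3. Without undamaged library 2, which carries leukocyte markers, 8 rose and 1 fell, and without both libraries 1 rose. Over all genes tested, 405 of 15496 rose and 294 fell without undamaged library 2. Without both libraries, 58 of 15454 rose (0.375%). Ccl2, which attracts monocytes through CCR2, was at 1.43, 44.6, 1.77 and 4.77 CPM in undamaged EC and at 47.2, 37.8 and 436 CPM at day 1. The high undamaged value is that of library 2, which carries macrophage markers, and the highest day 1 value is that of library 3. The log2 fold change was 3.85 with all libraries (adjusted p = 0.0263), 1.82 without day 1 library 3 (adjusted p = 0.414), and passed again when both were left out (adjusted p = 0.0209). It was not called when undamaged library 1, 3 or 4 was left out singly. Cxcl5, a neutrophil attractant, was at 0 in all undamaged libraries and at 5.98, 1.20 and 448 CPM at day 1. Cxcl9, induced by interferon gamma, was at 51.6, 14.3, 55.5 and 76.4 CPM against 8.00, 6.27 and 1.96 CPM and fell with all libraries (log2 fold change -3.20, adjusted p = 0.035). None of 20 interferon response genes was called (median log2 fold change -0.86). Irf1, an interferon response transcription factor, fell (log2 fold change -2.37, adjusted p = 0.0148), though not without library 3 (adjusted p = 0.119). Il4ra, a receptor subunit for interleukins of the type that acts through STAT6, rose with and without library 3, at 200, 154, 240 and 212 CPM against 764, 679 and 697 CPM (log2 fold change 1.82, adjusted p = 0.0009706, and 1.86, adjusted p = 0.00444 without library 3).

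Cytl1, Timp4 and Tsc22d3 fell with and without day 1 library 3. Cytl1, which encodes a small secreted cytokine-like protein, showed the strongest fall of the named genes, from 84.0, 98.6, 51.7 and 103 CPM to 0.889, 0.418 and 1.04 CPM. The gene lies on chromosome 5 at 37735519 to 37739820, and its log2 fold change was -6.74 (SE 0.82, adjusted p = 3.033e-05; -6.96 and adjusted p = 0.000843 without library 3). Timp4, an inhibitor of metalloproteinases that is abundant in capillary EC, was at 1354, 449, 1009 and 1439 CPM and at 101, 72.8 and 59.4 CPM (log2 fold change -3.77, adjusted p = 0.00365, and 0.0397 without library 3). Tsc22d3, a glucocorticoid-induced gene also known as GILZ, was at 543, 121, 320 and 575 CPM and at 64.5, 53.6 and 34.3 CPM (log2 fold change -2.94, adjusted p = 0.0009706, and 0.0157 without library 3). All 3 genes fell to levels below every undamaged library, which for Cytl1 was a condition of being named. Of 12 shear stress and quiescence genes, a list that holds Tsc22d3, 2 fell and none rose, and 1 fell without library 3. The shares of all genes tested that fell were 2.19% and 0.475%.

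Genes of fatty acid uptake and of the Notch pathway fell in part. The share of all genes tested that fell was 2.19% with all libraries and 0.475% without library 3. Of 16 capillary and fatty acid uptake genes 3 fell and none rose (median log2 fold change -1.41), and 1, Timp4, fell without library 3. Lpl, lipoprotein lipase, was at 1430, 1001, 1565 and 1698 CPM against 394, 255 and 143 CPM, with no overlap (log2 fold change -2.43, adjusted p = 0.0189, and 0.151 without library 3). Rgcc, a cell cycle regulator of capillary EC, fell from 212 to 886 CPM to 33.8 to 125 CPM (log2 fold change -2.75, adjusted p = 0.00644, and 0.0566 without library 3). In the Notch pathway 3 of 12 genes fell, Dll1, Hey1 and Lfng. None was called without library 3, without day 1 library 2 or without undamaged library 4, and 1 was without undamaged library 1 or 3. Over all genes tested, 249 of 15609 fell without undamaged library 1 and 241 of 15574 without undamaged library 3. Hey1, a transcriptional effector of the pathway, was at 90.6 to 196 CPM against 40.1 to 77.4 CPM (log2 fold change -1.30, adjusted p = 0.0277, and 0.199 without library 3). Tagln, a smooth muscle gene, fell with and without library 3 (log2 fold change -2.48, adjusted p = 0.00401, and 0.0424), and it is the 1 of 10 pericyte and smooth muscle markers called, a list whose sum was 1638 to 2579 CPM in undamaged EC and 1556 to 2509 CPM at day 1.

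Among genes outside the lists that led the ranking and held without library 3, Sh2d5, an SH2 domain adaptor, had the highest fold change. It was at 0.110, 0, 1.09 and 0.0757 CPM in undamaged EC and at 66.7, 81.7 and 44.7 CPM at day 1 (log2 fold change 7.20, SE 0.69, adjusted p = 5.978e-07; 7.39 and adjusted p = 7.516e-07 without library 3). Fosl1, a subunit of AP-1, was at 0.446 to 6.05 CPM against 42.2, 63.5 and 61.2 CPM (log2 fold change 4.23, adjusted p = 0.0009706, and 0.00539 without library 3). Uhrf1, a regulator of DNA methylation in dividing cells, was at 2.31 to 4.84 CPM and at 22.9, 23.2 and 274 CPM at day 1. Its log2 fold change was 4.81 with library 3 and 2.62 without it (adjusted p = 0.0221). Gata6, a transcription factor, was at 12.9 to 26.8 CPM in undamaged EC and at 2.62, 1.78 and 0.806 CPM at day 1 (log2 fold change -3.51, adjusted p = 0.00243, and 0.0278 without library 3). Amigo2, a cell adhesion and survival protein, went from 35.7 to 207 CPM to 4.61 to 9.66 CPM (log2 fold change -4.08, adjusted p = 0.00091, and 0.0133 without library 3).

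Single genes of other lists rose with and without library 3. Ddah1, which breaks down an inhibitor of nitric oxide synthase, was at 22.8, 5.80, 18.3 and 19.8 CPM in undamaged EC and at 69.4, 112 and 60.4 CPM at day 1 (log2 fold change 2.26, adjusted p = 0.00343, and 0.0099 without library 3). Srxn1, an enzyme that repairs oxidised peroxiredoxins, was at 23.7 to 29.3 CPM and at 64.2, 60.7 and 96.5 CPM (log2 fold change 1.49, adjusted p = 0.00344, and 0.0397), though it missed the threshold without undamaged library 2 as well (adjusted p = 0.0826). Both had groups that did not overlap. Col4a1, a collagen of the basement membrane, was at 4892, 2242, 2794 and 2627 CPM and at 7022, 8819 and 4811 CPM (log2 fold change 1.13, adjusted p = 0.0387, and 0.0428), with overlap through undamaged library 1 and day 1 library 3. Its call was lost without undamaged library 2, 3 or 4, without day 1 library 1 or 2, and without undamaged library 2 and day 1 library 3 together (adjusted p = 0.124).

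Further members were called with all libraries and not without library 3. With all libraries 5.43% of all genes tested were called, so 1 call in a list of 14 is near that share. Plau, urokinase, was at 53.5 to 147 CPM in undamaged EC and at 139, 219 and 793 CPM at day 1 (log2 fold change 2.14, adjusted p = 0.00677, and 0.228 without library 3). It belongs to 14 coagulation and fibrinolysis genes, of which 2 rose and none fell. Bmp6, a ligand that signals to the iron hormone hepcidin in liver, was at 125 to 177 CPM and at 67.1, 46.8 and 33.0 CPM (log2 fold change -1.66, adjusted p = 0.0112, and 0.09). Id2, a target of BMP signalling, was at 92.9 to 105 CPM and at 31.6, 36.5 and 39.2 CPM (log2 fold change -1.50, adjusted p = 0.0116, and 0.0637). Both lay below every undamaged library in all 3 day 1 libraries. Arntl, the clock transcription factor BMAL1, was at 39.7 to 82.6 CPM and at 7.86, 19 and 12.2 CPM (log2 fold change -2.28, adjusted p = 0.0145, and 0.107), the 1 of 14 clock genes called. Of 14 glycolysis genes 1 rose, the pyruvate kinase gene Pkm (log2 fold change 1.66, adjusted p = 0.0151, and 0.16), and none of 13 oxidative phosphorylation genes was called.

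**Figure D3:**
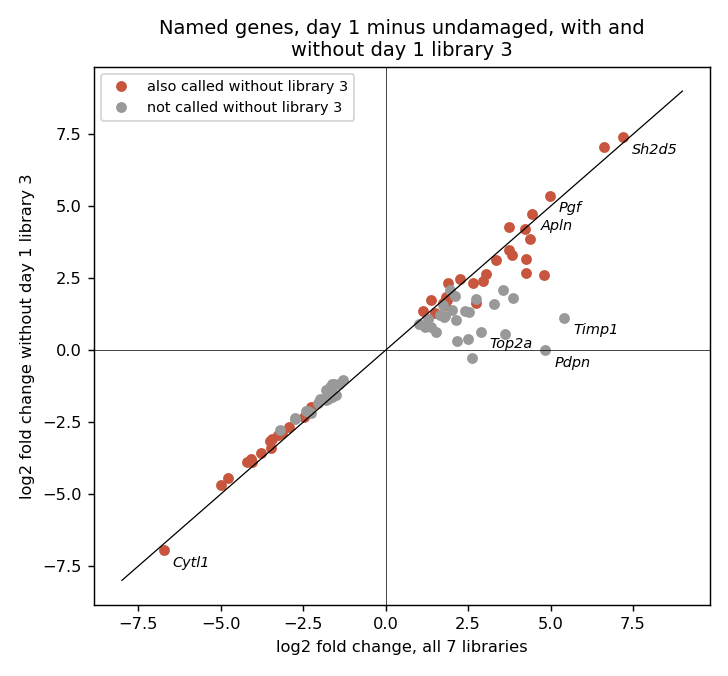
Log2 fold change of named genes with all 7 libraries (horizontal) and without day 1 library 3 (vertical), with equality drawn as a line. Genes called in both are red. Pdpn, Timp1 and Top2a lie far below the line, and Apln, Pgf, Sh2d5 and Cytl1 lie near it. Cxcl5 and Saa3 are left out because they were at or near 0 in undamaged EC.

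Some called genes rested on day 1 library 3 alone. Pdpn, podoplanin, which marks lymphatic EC and activated stromal cells, was at 8.79 and 10.9 CPM in day 1 libraries 1 and 2 and at 852 CPM in library 3, against 5.93 to 18.7 CPM in undamaged EC. Timp1, an inhibitor of metalloproteinases, was at 14.9 and 15.2 CPM in those libraries and at 883 CPM in library 3, against 1.14 to 19.9 CPM. That library holds the 19590 CPM of stromal markers. The log2 fold change was 4.85 for Pdpn and 5.41 for Timp1 with all libraries, and -0.013 and 1.12 without library 3. Timp1 also had a high value in undamaged library 1.

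The same contrast in CCR2KO EC compares other libraries. Its spread was estimated over all 45 EC libraries, which include the wild-type ones, so the 2 sets of calls are not fully separate. Ccr2 itself was at 0.232 CPM or less in all 5 CCR2KO libraries, and at 0.0757 to 8.03 CPM in undamaged and 3.19 to 6.85 CPM in day 1 wild-type EC. At day 1, 461 of 15860 genes differed in CCR2KO EC (2.91%), with 279 higher (1.76%) and 182 lower (1.15%). Of these, 293 were also called in wild type, all in the same direction, which is 63.6% of the CCR2KO calls and 34.6% of the wild-type calls. Among all 15603 genes tested in both, 72.3% had the same sign. These counts rest on individual libraries: without undamaged CCR2KO library 1, which held 9270 CPM of pericyte and smooth muscle markers, 8 genes were called, and without day 1 CCR2KO library 3, which held 1602 CPM of leukocyte markers and had 42.7% of its reads in no gene, 108 were.

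The leading genes moved in CCR2KO EC as well. Apln was at 16 and 23.9 CPM in undamaged and at 760, 726 and 655 CPM in day 1 CCR2KO EC (log2 fold change 5.16, adjusted p = 1.115e-06). Pgf was at 19.4 and 8.71 CPM and at 296, 514 and 405 CPM (log2 fold change 4.85, adjusted p = 0.00115). Cytl1 was at 203 and 34.7 CPM and at 3.48, 3.02 and 0.894 CPM (log2 fold change -5.52, adjusted p = 0.00115). The groups did not overlap in these 3 genes, as in wild type, where 18.5% of genes tested had such groups. That share was not counted in CCR2KO EC, so the lack of overlap there is a description only. Tubb6, Heatr1, Mthfd2, Sqle, Il4ra, Timp4, Tsc22d3 and Vegfc were called in the same direction too, with adjusted p-values from 0.000483 to 0.0429. Of the ribosome biogenesis genes 4 of 16 rose in CCR2KO EC, of the cholesterol synthesis genes 3 of 13, of the amino acid response genes 4 of 12 and of the S phase genes 4 of 14. The share of all genes tested that rose in CCR2KO EC was 1.76%. In the other direction, 4 of 16 capillary and fatty acid uptake genes fell there, 3 of 12 Notch pathway genes and 2 of 12 shear stress and quiescence genes. Of 20 interferon response genes 3 fell, and of 18 chemokines none was called. The share of all genes tested that fell in CCR2KO EC was 1.15%.

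The test of the difference between genotypes called no gene of 15860 (0%) by edgeR, with 515 at an unadjusted p under 0.05, and DESeq2 called 41. For Apln the difference of the responses, CCR2KO minus wild type, was 0.73 on the log2 scale (SE 0.55), and for Pgf it was -0.13 (SE 0.82). A difference that misses the threshold with 2 to 4 libraries a group does not show that the genotypes respond alike.

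**Figure D4:**
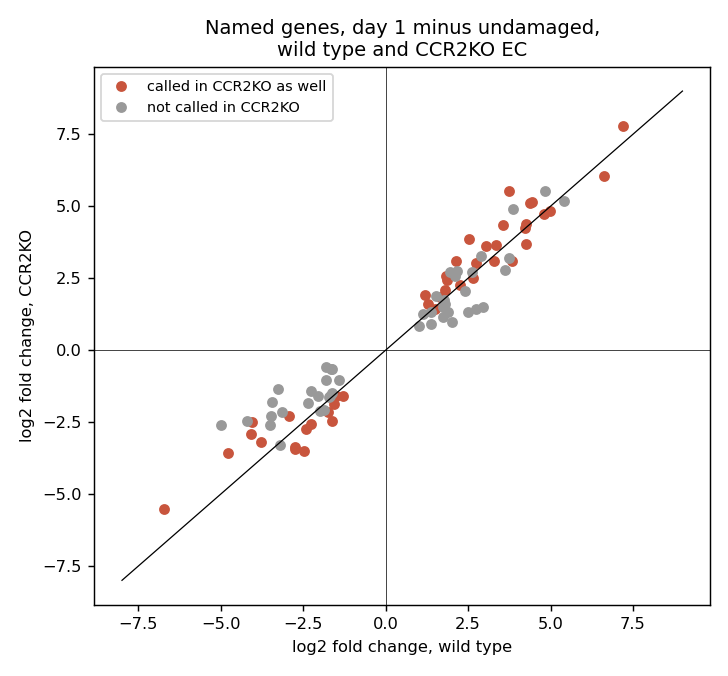
Log2 fold change, day 1 minus undamaged, of named genes in wild-type (horizontal) and CCR2KO EC (vertical), with equality drawn as a line. Red genes were called in CCR2KO as well. Cxcl5 and Saa3 are left out because they were at or near 0 in undamaged EC.

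The response was set against that of FAP, with the difference itself tested. It differed for 201 of 16286 genes (1.23%), with 74 higher in EC (0.454%) and 127 lower (0.78%). Without day 1 EC library 3 it differed for 376 of 16281 genes (2.31%), with 102 higher (0.626%) and 274 lower (1.68%), while the median difference over all genes shifted to -0.16 on the log2 scale. Of the 7 EC libraries, 6 carry a label code that a FAP library of the same day also carries. With that code as a block 103 genes differed (69 higher, 34 lower), and with the compared groups alone 155 did (96 higher, 59 lower), so the balance turned. Among named genes 8 differed. Pgf rose in EC and was at 57.0, 45.4 and 40.4 CPM in undamaged and 3.15, 6.21, 3.27 and 1.76 CPM in day 1 FAP, so the EC response exceeded that of FAP by 8.69 on the log2 scale (SE 0.82, adjusted p = 5.03e-10; 9.01 and adjusted p = 2.866e-10 without library 3). Apln was higher at day 1 in both populations, at 0 to 1.21 CPM in undamaged and 50.5 to 118 CPM in day 1 FAP. Its EC response was smaller on the log2 scale, with a difference of -2.54 (SE 0.65, adjusted p = 0.0319), and -2.31 without library 3 (adjusted p = 0.059), where the call was lost.

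Sh2d5 stayed at 0.464 CPM or less in all FAP libraries and rose in EC (difference 7.53, adjusted p = 0.00403, and 0.00218 without library 3). AA467197, whose product is not described here, was at 0.364 to 1.29 CPM in undamaged EC and at 86.6, 114 and 34.1 CPM at day 1, and at 2.16 CPM or less in FAP (difference 8.56, adjusted p = 2.885e-07, and 1.45e-07 without library 3). Mcm2 went from 4.96 to 5.69 CPM to 239 to 324 CPM in FAP, more than in EC (difference -3.04, adjusted p = 0.00663, and -4.21 without library 3, adjusted p = 7.429e-05). Bmp2, a bone morphogenetic protein ligand, was at 11.0 to 24.0 CPM in undamaged EC and at 88.1, 98.7 and 21.9 CPM at day 1, and at 44.3 to 184 CPM and 16.8 to 28.1 CPM in FAP (difference 4.23, adjusted p = 0.00704, and 0.00177 without library 3). The day 1 EC library with stromal RNA was the lowest for Bmp2 and lay inside the undamaged range.

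Later days place day 1 in the course, as a description. It shares the undamaged and day 1 libraries with the comparison by which the genes were named. Apln had its highest median at day 1 (381 CPM), with 163 CPM at day 2, 42.3 CPM at day 3 and 109 CPM at day 5. Pgf went from 188 CPM at day 1 to 124 CPM at day 2 and 41.8 CPM at day 3. Cytl1 had its lowest median at day 1 (0.889 CPM), and it was 4.79 CPM at day 2, 19.1 CPM at day 3 and 46.6 CPM in the single library of day 14. For Tsc22d3 the median was 53.6 CPM at day 1, 171 CPM at day 3 and 394 CPM at day 10, against 431 CPM in undamaged EC. Timp4 stayed low for longer, at 72.8 CPM at day 1, 65.6 CPM at day 4 and 437 CPM at day 7, against 1181 CPM in undamaged EC. At day 1 each of these genes was at an extreme or near it, which naming them by their day 1 change favours.

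**Figure D5:**
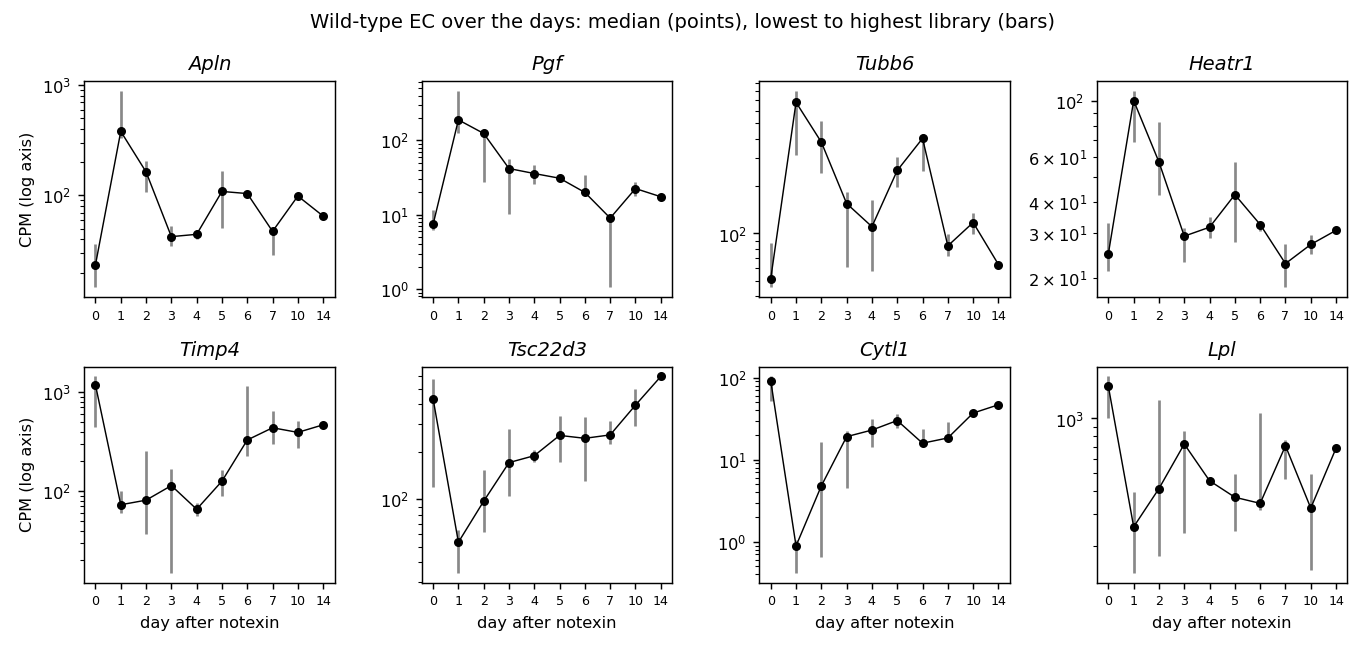
Median CPM (points) and the range from lowest to highest library (bars) of 8 genes in wild-type EC over days after notexin, on log axes, with day 0 undamaged. Apln and Pgf have their highest medians at day 1 (381 and 188 CPM), and Cytl1 has its lowest there (0.889 CPM). The genes were named by their change at day 1.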

How the data were processed

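RNA was sequenced from sorted cells as stranded paired-end mRNA libraries, per the labels' protocols. The authors deposited read counts, not normalized, with 1 row per gene symbol. Per the submitters' processing notes, bcl2fastq, Bowtie and STAR were used with the build mm10, and the sources used here give no versions, counting program or strand setting. Reads in no feature (3.90% to 21.6% in the 7 libraries) and ambiguous reads stayed out of totals. Overlapping, antisense and near-identical genes are therefore uncertain.

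The quasi-likelihood test of edgeR 4.0.16 (R 4.3.3) was run after filterByExpr with TMM scaling and a trended dispersion. Called means an adjusted p (Benjamini-Hochberg, over all genes tested) below 0.05, and every adjusted p printed comes from edgeR. Wild-type EC were fitted over 31 libraries with 1 mean per day, genotypes over 45 and EC with FAP over 63. CPM are TMM-scaled within each fit. Standard errors follow from the F statistic. Total counts set the precision, and PCR copies count as reads.

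There were 53 lists of 601 genes, 595 in the table. The members of lists and the comparison were chosen with earlier results of these data known. Named were up to 4 called genes per list with at least 10 CPM, and the 12 highest and 12 lowest called genes with non-overlapping groups that held without day 1 library 3, of which the text gives a part. Ddx21 and the genes given without a call were chosen after their values were seen. The printed windows were taken from a longer list after the search, those of Nop2 and Hmgcs1 because they held a match. Coordinates are from GENCODE M21 (GRCm38). On simulated counts of 15013 genes, 98.6% of 8-fold, 74.3% of 4-fold and 8.33% of 2-fold changes were recovered for the comparison of day 1 with undamaged EC. All simulated libraries shared 1 mean profile outside the changed genes, so none carried more RNA of other cells than its mates. Only genes of at least 10 CPM were changed, and 5 unchanged genes were called.

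Alternatives were RLE scaling, no filter, DESeq2 1.42.0, a replicate block, the compared groups alone, each library left out, the R52 code of the labels, stromal markers as a covariate and the full label code as a block. Leaving out 2 libraries together was chosen after seeing the data. Results for some genes are not reported here.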

Additional observations from a re-analysis of the deposited data

Results flagged for a closer look

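Of 105 sets of 4 undamaged EC values tested (named genes and marker sums), 12 had a library far from the other 3, where chance flags about 1 in 20. Undamaged library 2 was the one in 8 of them. It was high for leukocyte markers (594 CPM), macrophage and monocyte markers (1193 CPM), T, NK and B cell markers (64.3 CPM), platelet markers (88.4 CPM), Ccl2 (44.6 CPM) and Saa3 (0.893 CPM), and low for Nop2 (21.0 CPM) and Fas (38.8 CPM). Undamaged library 1 was high for tenocyte markers (1259 CPM). Vegfc was high in library 4 (109 CPM), Sh2d5 was high in library 3 (1.09 CPM), and E2f1 was low in library 3 (0.312 CPM).

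For 8 named genes the day 1 response of EC differed from that of FAP. The difference, EC minus FAP on the log2 scale, was 8.69 for Pgf, 8.56 for AA467197, 7.53 for Sh2d5, 4.23 for Bmp2, 2.51 for Mcam, -2.54 for Apln, -2.89 for Amigo2 and -3.04 for Mcm2.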

How the results depend on the processing

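Of 91 named genes, 28 kept their call under every alternative run for the first comparison, among them Apln, Pgf, Sh2d5, Tubb6, Heatr1, Mthfd2, Sqle, Il4ra, Cytl1, Timp4, Tsc22d3 and Vegfc. Of 1455 values over all settings, 1072 kept direction and call, 380 kept direction only and 3 reversed: without day 1 library 3 Pdpn (-0.013) and Rrm2 (-0.28), and Rrm2 (-0.30) without undamaged library 2 and day 1 library 3. With another library left out, Pdpn reached 5.41 and Rrm2 3.13. The cause was not tested. Leaving out 1 wild-type library ended the call of 10 to 29 of the 91 genes, except that without day 1 library 3 the 2 reversed genes and 48 others lost it. The 848 calls became 1627 with DESeq2, 200 with the compared groups alone, 564 with the R52 code as a covariate, 241 with R52 libraries among the compared groups and 121 without both libraries. All day 1 libraries and 2 of 4 undamaged ones carry that code. With stromal markers as a covariate, fitted on the compared groups alone, 1132 genes were called, 663 of them among the 848. Each library left out in turn gave 202 to 896. In CCR2KO the 461 calls became 1585 with DESeq2, 80 with the compared groups alone, and 8 to 497 with a library left out. The genotype difference gave 41 calls with DESeq2 and 0 in the leave-one-out fits. For EC minus FAP, the 201 calls became 375 with DESeq2, 103 with the label code as a block, 372 without both libraries and 98 to 376 with a library left out. Same-numbered libraries did not deviate together in wild type (correlations 0.0579, -0.398 and -0.434). Undamaged library 3 and day 1 library 2 did (0.4825), as did undamaged library 2 and day 1 library 3 (0.359), which both carry stromal RNA. These values therefore cannot decide whether the numbers pair libraries. No undamaged wild-type EC library shares its full label code with a day 1 one, and the labels do not explain the codes. The replicate block gave 1093, 373, 0 and 190 calls in the 4 comparisons. Marker sums moved by less than the spread between libraries with CPM by library total. A library of 1781338 counts limits low genes in undamaged library 2.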
